A study of Mus musculus with 2 samples.

Results

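The acute-phase genes *Saa3*, *Lcn2*, *Hp* and *Cp* were followed through the cells of mouse periodontal tissue, 4 of the 31053 genes in the count matrices. They were picked by symbol because of the *Saa3* counts of the ligature library, so those counts are given here as a description. The acute-phase response is the change in secreted proteins that follows infection or injury. It is driven by cytokines such as IL-6 and IL-1, which act through STAT3, C/EBP and NF-kappaB factors, and it is best known from the liver. *Saa3* encodes a serum amyloid A protein that mice make largely outside the liver. *Lcn2* encodes lipocalin 2, which withholds iron from bacteria by binding their siderophores and is stored in neutrophil granules. *Hp* encodes haptoglobin, which captures free hemoglobin, and *Cp* encodes ceruloplasmin, a copper-carrying ferroxidase.

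The cells came from gingiva and alveolar bone surface of WT C57BL/6 mice aged 8 weeks. One library holds cells of 5 mice with ligature-induced periodontitis (LIP), taken 7 days after ligature placement, and the other holds cells of 5 untreated mice (control). Cells were not tied to single mice, so each condition is 1 pooled library and no difference between conditions has a replicate check. Intervals in the text are exact 95% intervals that cover counting error only, and no p-value is given.

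The LIP library kept 936 of 1212 barcodes with 10560109 unique molecular identifiers (UMIs, which count captured transcripts), at a median of 5595 per cell. The control library kept 883 of 1169 barcodes with 13407122 UMIs, at a median of 10845. The libraries shared 2 barcode sequences, 1 of them kept in both. Cells were grouped into 12 classes named after their marker genes, plus 1 cycling sub-cluster that stayed unnamed. Levels are UMIs of a gene per 1000000 UMIs of all cells in a class (CPM).

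In mm10 all 4 are protein-coding genes. *Saa3* lies at chr7:46711998-46715700 on the minus strand, *Lcn2* at chr2:32384633-32388252 on the minus strand, *Hp* at chr8:109575128-109579172 on the minus strand and *Cp* at chr3:19957054-20009145 on the plus strand. RefSeq promoter entries on GRCm38.p6 matched 3 of the 4. The 250 bases upstream of the annotated start are shown for *Saa3* (chr7:46715677-46715926) and *Lcn2* (chr2:32387740-32387989), because most of the results concern these genes, with motif matches in capitals.

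Saa3: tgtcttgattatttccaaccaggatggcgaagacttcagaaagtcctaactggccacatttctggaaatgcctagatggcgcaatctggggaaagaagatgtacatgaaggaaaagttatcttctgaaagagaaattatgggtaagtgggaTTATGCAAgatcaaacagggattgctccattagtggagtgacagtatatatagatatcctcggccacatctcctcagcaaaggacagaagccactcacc
Lcn2: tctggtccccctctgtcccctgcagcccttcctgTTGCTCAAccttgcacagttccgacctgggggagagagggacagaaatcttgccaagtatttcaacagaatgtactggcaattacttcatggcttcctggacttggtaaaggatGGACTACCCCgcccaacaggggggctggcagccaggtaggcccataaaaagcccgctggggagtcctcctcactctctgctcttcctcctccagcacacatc

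Motifs were searched on both strands as TTGCNNAA for C/EBP, TTCNNNGAA for STAT and, for NF-kappaB, GGG and CC with any 5 bases between them. The *Saa3* window held a C/EBP match (printed as TTATGCAA, since the letters lie on the opposite strand) and neither of the other motifs. The *Lcn2* window held a C/EBP match (TTGCTCAA) and an NF-kappaB match (GGACTACCCC, on the opposite strand). Of 32851 windows of the same length, 9.56% held the C/EBP letters, 45.8% the NF-kappaB letters and 7.02% the STAT letters. The *Lcn2* window lies inside the gene's longer annotated span. The last bases of the *Saa3* window overlap the span of *Saa3*, which reaches to 46715700. Both windows can therefore hold transcribed bases of other transcripts. The matches did not overlap each other. *Cp* has 2 promoter entries, 1 without a match and 1 with a C/EBP and an NF-kappaB match, and *Hp* has none in the table.

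*Saa3* was counted 13472 times in 211 of the 936 LIP cells and 6 times in 6 of the 883 control cells. Macrophage-like cells of the LIP library (marked by *C1qb*, *Ctss* and *Csf1r*) held 8652 of these UMIs, 64.2% of the library's total, at 5579 CPM (5462 to 5698). Osteogenic-like cells, whose markers include *Col1a1* and *Ibsp*, held 4341, or 32.2%, at 2932 CPM (2846 to 3021). Neutrophil-like cells followed at 172 CPM (153 to 193), and the unnamed sub-cluster of 11 cells stood at 213 CPM (171 to 264), an interval that overlapped the neutrophil one. All other classes lay between 6.13 and 40.4 CPM, each overlapping its neighbour in the order.

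In the control library *Saa3* had 0 UMIs in 42 macrophage-like, 132 osteogenic-like and 65 neutrophil-like cells. Of the 132, 20 lay in a sub-cluster led by the bone genes *Ibsp* and *Bglap*. Another 101 lay in one led by *Mfap4*, *Clec3b* and *Dpt*, and 11 in one led by *Cytl1* and *Acan*. The osteogenic-like class therefore joined cells led by bone genes with cells that were not. With 3 counts over the group as the limit that a count of 0 allows, the LIP level was at least 1105-fold higher in macrophage-like cells. It was at least 1433-fold higher in osteogenic-like cells and at least 27.5-fold higher in neutrophil-like cells. The osteogenic-like and neutrophil-like limits pool sub-clusters that the libraries filled differently. Within the *Ibsp* and *Bglap* sub-cluster the limit was 434-fold, within the *Mfap4* one 34.1-fold and within the *Cytl1* and *Acan* one 1.33-fold. In the neutrophil-like sub-clusters it lay between 2.70-fold and 7.75-fold. One neutrophil-like cell held 99 of the 288 LIP UMIs of its class. The 6 control UMIs were single UMIs in vascular endothelial-like, mural-like, T-like and B-like cells. The gene passed the minimum of 50 UMIs only through the LIP library, so these ratios could not have come out low.

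**Figure D1:**
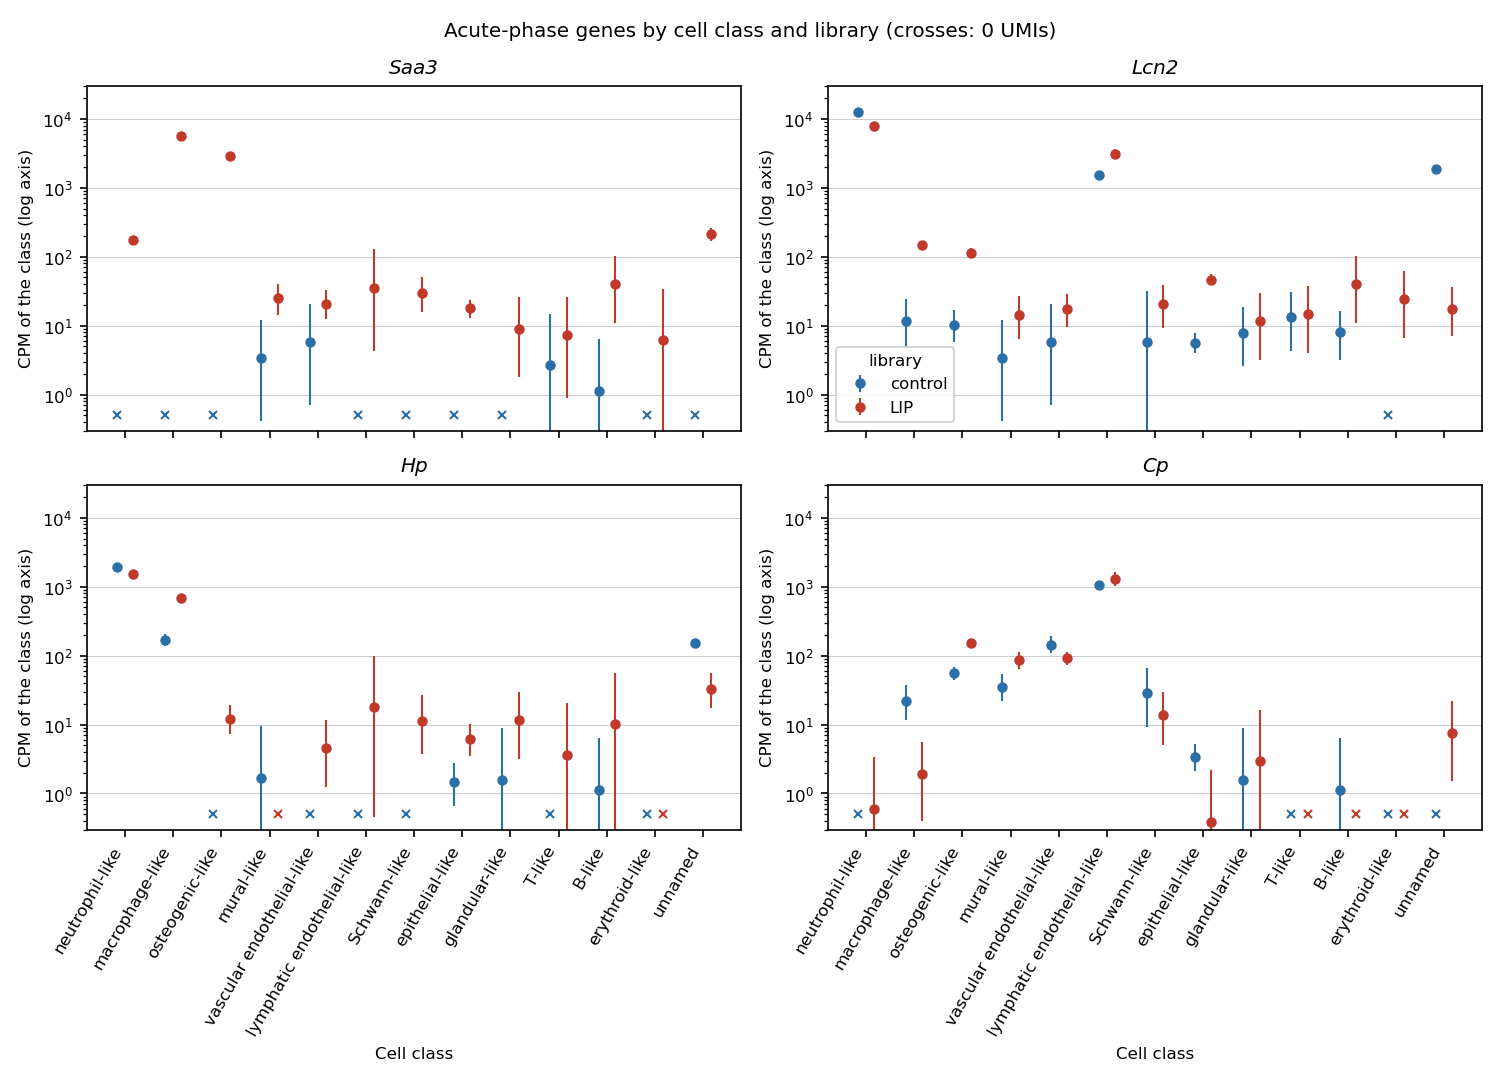
CPM of *Saa3*, *Lcn2*, *Hp* and *Cp* (log axis) in each cell class, with control in blue, LIP in red, bars for exact 95% counting intervals that are cut at the lower edge of the axis, and crosses for classes with 0 UMIs. *Saa3* stands at 5579 CPM in macrophage-like and 2932 CPM in osteogenic-like LIP cells with crosses in control, while *Lcn2* and *Hp* are highest in neutrophil-like cells of both libraries and *Cp* in lymphatic endothelial-like cells.

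Most of the *Saa3* came from very few cells. The cell with the most held 3045 UMIs, 14.3% of its own 21351 UMIs and 22.6% of all *Saa3* in the library. It was an osteogenic-like cell of the sub-cluster led by *Ibsp* and *Bglap*, genes of bone-forming cells. The cell carried 258 *Col1a1*, 107 *Lcn2* and 21 *Cp* UMIs with 0 of *C1qa*, *Csf1r* and *Krt14*. It had 1195 UMIs over the osteogenic marker list, 0 of them from the bone matrix gene *Spp1*. The study states that ligament and osteoblastic cells are hard to tell apart from sequencing data. The next 4 cells were macrophage-like, with 2110, 1498, 1454 and 898 UMIs. The first 5 cells held 66.8% of the total and the first 10 held 89.8%, and 11 cells sufficed for 90% of it. For *Hp* in the same library 184 cells were needed for 90%, for *Lcn2* 77 and for *Cp* 51.

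**Figure D2:**
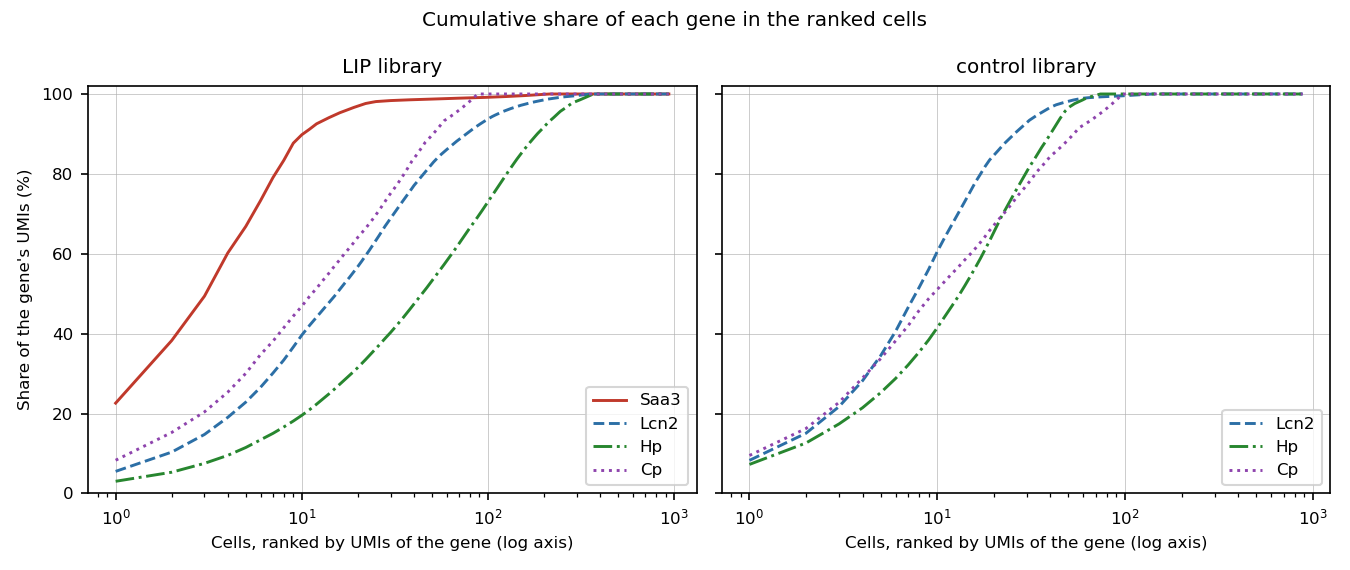
Share of each gene's UMIs (percent) held by the cells with the most of it, against the number of cells ranked by that gene (log axis), in the LIP library on the left and the control library on the right, where *Saa3* with 6 UMIs is not drawn. The *Saa3* line starts at 22.6% with the first cell and reaches 89.8% at 10 cells, above the lines of *Cp*, *Lcn2* and *Hp*.

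A limit of 20 or more UMIs, set after the values were seen, separated 25 LIP cells from the rest. In macrophage-like cells 14 of 83 reached it, between 21 and 2110 UMIs, and held 8609 of the class's 8652, and the next cell had 8. In osteogenic-like cells 7 of 64 reached it, between 24 and 3045 UMIs, with 4323 of 4341, and the next cell had 4. Of these 7, 6 belonged to the bone sub-cluster and 1 to the sub-cluster led by *Mfap4*, *Clec3b* and *Dpt*. The remaining 4 were 3 neutrophil-like cells, with 99, 87 and 20 UMIs, and 1 unnamed cell with 78.

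Marker genes were checked in each of these cells. All 14 macrophage-like cells carried macrophage markers (21 to 976 UMIs over the 14 genes of the list), of which *Lyz2*, a gene that neutrophils also express, gave 2385 of 3515. Without *Lyz2* they carried 15 to 402, fewer than their neutrophil marker UMIs in 6 of the 14 cells. With *Lyz2* neutrophil markers outnumbered macrophage markers in 2 cells (32 against 21 and 69 against 44 UMIs), and osteogenic markers did in 2 others (460 against 233 and 278 against 128). *C1qa* had 39 UMIs in the macrophage-like cell with 2110 *Saa3* UMIs and 2 in that with 898. In the other macrophage-like cells among the 10 cells with the most *Saa3* it was at 0. *Csf1r* had 2 to 14 UMIs in these macrophage-like cells, except for 0 in that with 284 *Saa3* UMIs. The summed level of the macrophage list in the 14 was 13923 CPM, against 17264 CPM in the other 69 LIP macrophage-like cells. The summed neutrophil markers were 3070 CPM in the 14 and 1196 CPM in the 69, with *Cxcr2* and *Ly6g* at 0 in the 14. Osteogenic markers stood at 4436 CPM in the 14, ranging from 0 to 26933 per cell, and at 1841 CPM in the 69. *Spp1*, which activated macrophages also make, gave 460 of the 460 such UMIs in the cell with the most. The part of RNA from other cells in these counts was not tested. In the 7 osteogenic-like cells 9 of the 14 macrophage markers were at 0, among them *C1qa*, *C1qb* and *Adgre1*, and the rest summed to 159 CPM, against 525 CPM in the other 57.

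The markers of the 4 remaining cells varied. The neutrophil-like cell with 99 *Saa3* UMIs had 823 UMIs in all, 0 from neutrophil markers and 62 from osteogenic markers. It lay in a low-depth sub-cluster (median 787 UMIs) that was named by 1 leading neutrophil marker, *Hdc*. The unnamed cell had 4058 osteogenic marker UMIs, 1596 of them *Col1a1*. The neutrophil-like cells with 87 and 20 UMIs carried 836 and 76 neutrophil marker UMIs.

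**Figure D3:**
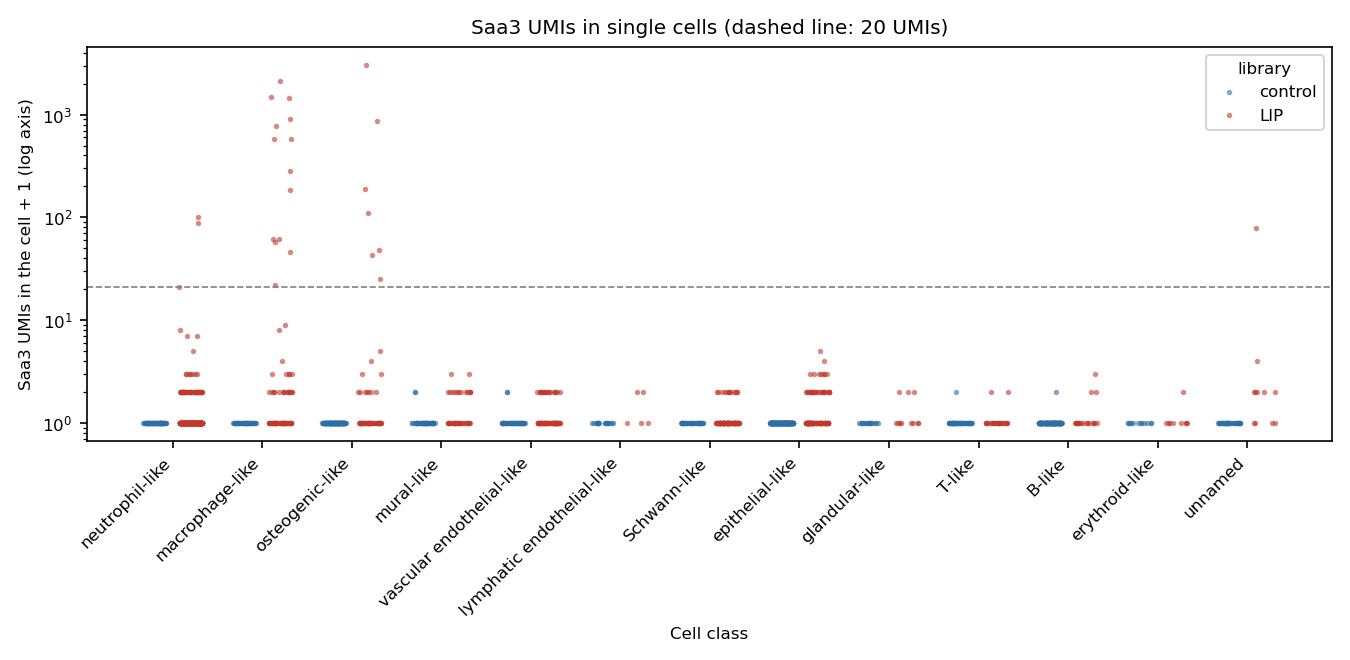
*Saa3* UMIs of each cell plus 1 (log axis) by cell class, with control cells in blue, LIP cells in red and a dashed line at 20 UMIs. Only LIP cells lie on or above the line, 14 macrophage-like, 7 osteogenic-like, 3 neutrophil-like and 1 unnamed, while all control cells have 0 or 1 UMI.

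Single *Saa3* UMIs were spread more widely. A UMI was found in 44.6% of macrophage-like, 28.1% of osteogenic-like, 16.1% of neutrophil-like and 30.4% of epithelial-like LIP cells, at median depths of 16668, 20157, 3708 and 23929 UMIs. T-like cells, which should lack the transcript, had it in 2 of 27 (7.41%) at a median of 8437 UMIs, and B-like cells in 3 of 20 (15%) at 4578. After each cell was thinned to 1000 UMIs, with 2 macrophage-like, 40 neutrophil-like and 10 epithelial-like cells too shallow and left out, the shares were 21% (12.7 to 31.5), 10.9%, 4.59% and 2.94%. T-like cells then had 0 of 27, which allows a share of up to 11.1%, and B-like cells 2 of 20. The 73 LIP barcodes under 200 genes, at a median of 6019 UMIs, carried 4 *Saa3* UMIs, 6.85 CPM. The part of free RNA in the low shares was not tested.

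The upper limit of 60000 UMIs and 7500 genes left out barcodes with much *Saa3*. Over all LIP barcodes there were 24870 *Saa3* UMIs, of which 11398 (45.8%) lay in the 276 barcodes that did not pass the filters. One barcode with 79853 UMIs and 7273 genes held 8802 *Saa3* UMIs, 11% of its content and more than any other gene in it, beside 591 *Col1a1*, 165 *Ibsp*, 527 *Dcn* and 0 *C1qa*. The next 2 held 1530 and 916, each with over 1000 *Col1a1* UMIs (1982 and 1134). The barcode of 916 also carried 58 UMIs of the endothelial marker *Pecam1*, where the other 2 had 0. Whether such barcodes held more than 1 cell was not tested. With no upper limit the osteogenic-like level was 8406 CPM and its share of the library's *Saa3* 59.4%, and the macrophage-like share was 34.8%. The order of the 2 classes therefore depended on this limit. Under the limit, the osteogenic-like level was 888 CPM without the cell of 3045 UMIs and the macrophage-like level 4310 CPM without the cell of 2110. In the control library the 286 barcodes left out held 6 *Saa3* UMIs.

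*Lcn2* had 13759 UMIs in 355 LIP cells and 8768 in 137 control cells, and neutrophil-like cells were its highest class in both. They held 94.5% of the LIP and 68.8% of the control UMIs, at 7784 CPM (7651 to 7919) in LIP and 12578 CPM (12263 to 12900) in control, a log2 ratio of -0.69 (-0.74 to -0.65). In control 2240 of the 8768 UMIs lay in 4 *S100a8*-rich cells of the unnamed sub-cluster, outside the neutrophil-like share. Clusterings with 15 dimensions and with the 4 genes left out of the variable features put 3 and 4 of these cells among neutrophil-like cells. After neutrophil-like cells, lymphatic endothelial-like cells came next in LIP, and in control they came after the unnamed sub-cluster. Below them the LIP order was macrophage-like and osteogenic-like, with overlapping intervals, then epithelial-like.

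Within neutrophil-like cells *Lcn2* depended on the sub-cluster. The sub-cluster led by *Ltf*, *Ngp* and *Camp*, genes of neutrophil granules that are made before the cells mature, counts *Lcn2* itself among its 10 leading genes. There *Lcn2* ranged from 8 to 758 UMIs with a median of 162 in 48 LIP cells, and from 31 to 725 with a median of 208 in 23 control cells. The sub-cluster led by *Acod1* and *Ccl3* ranged from 0 to 241 with a median of 2 in 272 LIP cells, and from 0 to 100 with a median of 3 in 30 control cells. The ranges of the libraries overlapped in both sub-clusters. The log2 ratios within them were -0.05 (-0.10 to -0.01) and -0.16 (-0.31 to -0.01), smaller than the ratio of the whole class, and the granule sub-cluster made up 48 of 367 LIP and 23 of 65 control neutrophil-like cells.

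*Hp* had 3699 UMIs in 366 LIP cells and 1213 in 74 control cells, and neutrophil-like cells were again its highest class in both. Macrophage-like cells came next, in control with an interval that overlapped that of the unnamed sub-cluster. Neutrophil-like cells had 1535 CPM (1476 to 1595) in LIP and 1909 CPM (1787 to 2037) in control, a log2 ratio of -0.31 (-0.42 to -0.20). In the granule sub-cluster the level was 2030 CPM in both libraries, with medians of 20 (6 to 84) and 28 (10 to 88) UMIs per cell. In the *Acod1* and *Ccl3* sub-cluster it was 1284 CPM in LIP and 1758 CPM in control, a log2 ratio of -0.45 (-0.66 to -0.24). *Hp* was thus closer to even across the neutrophil sub-clusters than *Lcn2*, whose LIP level was 15822 CPM in the granule sub-cluster and 2965 CPM in the other.

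**Figure D4:**
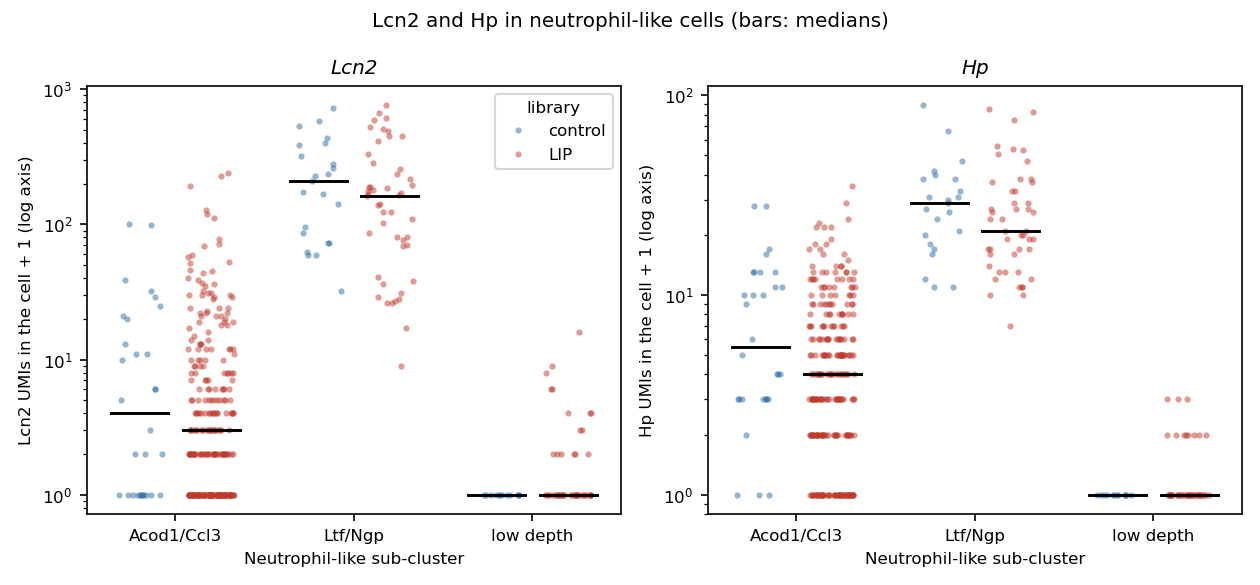
UMIs per cell plus 1 (log axis) of *Lcn2* on the left and *Hp* on the right in the 3 neutrophil-like sub-clusters, with control cells in blue, LIP cells in red and medians as black bars. *Lcn2* medians are 208 and 162 in the *Ltf* and *Ngp* sub-cluster against 3 and 2 in the *Acod1* and *Ccl3* sub-cluster, and the 2 libraries overlap in each.

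In the neutrophil-like comparison, 12.3% of 3280 genes were 2-fold or more higher in LIP and 3.05% were 2-fold or more lower, counting genes with at least 50 UMIs over both libraries. *Lcn2* and *Hp* passed 2-fold in neither direction. *Saa3* reached the minimum only through LIP, so its being past 2-fold is not counted, and *Cp* had 1 UMI in LIP and 0 in control. Among the other granule genes 10 of 14 were measured, of which *Arg2* was higher (643 against 238 CPM) and *Mmp8* and *Cd177* were lower, with a median log2 ratio of -0.88 against -0.00 over all genes. *Ltf*, the granule lactoferrin, was at 3205 CPM in LIP and 6367 CPM in control, a log2 ratio of -0.99.

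Genes that handle iron, copper and heme were also counted in neutrophil-like cells. Of 11 measured, 8 were 2-fold or more higher and 0 lower, and the median log2 ratio was 1.39. They included the ferritin chain gene *Fth1* (27968 against 7250 CPM), the heme oxygenase gene *Hmox1* (153 against 39.6 CPM) and the metalloreductase gene *Steap4* (201 against 31.3 CPM). Of the 8, at least *Hmox1*, *Steap4*, *Trf*, *Slc31a1* and *Atp7a* reached the minimum only with their LIP counts. Of 14 measured regulators of the acute-phase response 6 were higher and 0 lower, among them *Il1b* (8314 against 2771 CPM), *Cebpb* (3017 against 1483 CPM) and *Nfkbiz* (1657 against 442 CPM). At least *Nfkb1* and *Rela* of these regulators reached the minimum only with their LIP counts. None of the 6 measured receptors and partners and none of the 2 measured other secreted acute-phase proteins passed 2-fold.

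These whole-class counts join sub-clusters that the libraries filled differently, and *Il1b* is a leading gene of the *Acod1* and *Ccl3* sub-cluster, which held 272 of 367 LIP and 30 of 65 control cells. Within that sub-cluster 11.3% of 2094 genes were 2-fold or more higher in LIP and 7.64% were 2-fold or more lower. There 3 of 8 measured iron, copper and heme genes were higher and 0 lower, namely *Fth1* (log2 ratio 1.35), *Hmox1* (2.08) and *Steap4* (1.68). *Hmox1* had 7 control UMIs and *Steap4* 13, so both reached the minimum only with their LIP counts. Of 13 regulators *Nfkbiz* was higher (1.11) and *Il6ra* and *Cebpd* were lower, while *Il1b* (0.51) and *Cebpb* (0.13) stayed short of 2-fold. Of 6 granule genes 0 were higher and 5 were lower, among them *Mmp8* (-2.60) and *Ngp* (-2.26).

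Within the granule sub-cluster 2.28% of 1756 genes were 2-fold or more higher in LIP and 0.683% were 2-fold or more lower. None of its 5 measured iron, copper and heme genes and none of its 10 granule genes passed 2-fold. Of 11 regulators *Zc3h12a*, which encodes an RNase that degrades cytokine transcripts, was higher (1.03, 0.19 to 1.96). It had 57 UMIs in LIP and 15 in control, so it reached the minimum only with its LIP counts. *Fth1* stood at a log2 ratio of 0.54, *Il1b* at 0.47 and *Ltf* at -0.08.

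In the unnamed cycling sub-cluster 4 control cells carried 20 or more *S100a8* UMIs, with 3630 to 5702 each. They had at most 3 UMIs of the keratin gene *Krt14*, 906 *Ltf* UMIs together, and 525 to 595 *Lcn2* UMIs each. These cells held 2240 of the sub-cluster's 2249 control *Lcn2* UMIs and all 185 of its *Hp* UMIs, while the other 35 control cells had 9 *Lcn2* UMIs. The control level of 1859 CPM in that sub-cluster rested on the 4 cells. In these 4 *Lcn2* stood at 19392 CPM and *Hp* at 1602 CPM. The granule sub-cluster of control neutrophil-like cells stood at 16415 and 2030 CPM.

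In macrophage-like cells *Hp* was at 691 CPM (650 to 734) in LIP and 170 CPM (138 to 207) in control, a log2 ratio of 2.02 (1.73 to 2.33). A UMI was found in 49 of 83 LIP and 9 of 42 control cells, at median depths of 16668 and 13720 UMIs. After thinning to 1000 UMIs the shares were 32.1% (22.2 to 43.4) and 20% (9.05 to 35.7), which overlap, and after thinning to 2000 UMIs they were 45% (33.8 to 56.5) and 10.5% (2.94 to 24.8), which do not. The control shares were 8 of 40 and 4 of 38 cells, each from 1 random draw, so the change in overlap rests on few cells. The LIP cell with the most *Hp* of the library, 112 UMIs, was a macrophage-like cell with 3 *Saa3* UMIs. *Lcn2* stood at 150 CPM (132 to 171) in LIP and 11.8 CPM (4.74 to 24.3) in control, a log2 ratio of 3.67 (2.61 to 5.0), with 101 of its 233 LIP UMIs in 1 cell. That cell also held 1498 *Saa3* UMIs.

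In the macrophage-like comparison 8.24% of 4988 genes were 2-fold or more higher in LIP and 3.77% were 2-fold or more lower. *Hp* was higher. *Saa3* and *Lcn2* reached the minimum of 50 UMIs only through LIP, so their being past 2-fold is not counted, and *Cp* had 3 UMIs in LIP and 13 in control. Of 12 measured iron, copper and heme genes 5 were higher and 1 lower, with a median log2 ratio of 0.95 against 0.06 over all genes. The higher ones were *Fth1* (27004 against 6379 CPM), *Hmox1* (529 against 85.8 CPM), the phagosomal metal transporter gene *Slc11a1* (215 against 48.8 CPM), *Slc39a14* and the copper importer gene *Slc31a1*. At least *Slc11a1* and *Slc31a1* reached the minimum only with their LIP counts. Transferrin, *Trf*, was lower, at 78.7 against 300 CPM.

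Receptors and partners of the 4 proteins were also counted in macrophage-like cells. Of 7 measured, 5 were higher and 0 lower, beside 8.24% higher and 3.77% lower over all genes. Their median log2 ratio was 1.5. *Fpr2*, a formyl peptide receptor that binds serum amyloid A, was at 153 against 16.8 CPM, *Tlr2* at 326 against 128 CPM, and *Mmp9*, whose protein forms a complex with lipocalin 2, at 101 against 1.68 CPM, with UMIs in 8 LIP cells. At least *Fpr2* and *Mmp9* reached the minimum only with their LIP counts. *Cd163*, the receptor for haptoglobin bound to hemoglobin, was below the minimum, with 4 UMIs in LIP and 40 in control. Of the lipocalin 2 receptor genes *Lrp2* had 0 UMIs in both libraries and *Slc22a17* 0 in LIP and 2 in control.

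Of 16 measured regulators *Il1b* (2641 against 744 CPM) and *Cebpb* (914 against 444 CPM) were higher and the receptor gene *Il6st* was lower (38.0 against 79.1 CPM). Of 9 measured granule genes 5 were higher, *Mmp9* of the partner list among them, and *Chil3* was lower. Some of the higher ones rested on few cells, *Mpo* with 125 UMIs in 2 LIP cells and *Ctsg* with 138 in 4. Their part in the class's other differences was not tested. At least *Mpo*, *Ctsg* and *Mmp9* of the higher granule genes reached the minimum only with their LIP counts. Of the other secreted acute-phase proteins 2 were measured, and neither passed 2-fold.

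The 14 macrophage-like cells with 20 or more *Saa3* UMIs differed from the other 69 in the same library, at medians of 17436 and 15394 UMIs. *Lcn2* was at 768 against 30 CPM and *Hp* at 1727 against 490 CPM, with a UMI of *Lcn2* in 8 of 14 and 17 of 69 cells and of *Hp* in 13 of 14 and 36 of 69. *Hmox1* stood at 2317 against 181 CPM, *Fth1* at 79785 against 16741 CPM, *Fpr2* at 507 against 83.9 CPM and *Slc31a1* at 218 against 37.7 CPM. *Trf* was at 3.96 against 93.2 CPM and *Mmp9* at 3.96 against 119 CPM. Leading genes by fold after *Saa3* were *Ccl5*, with 1403 of its 1788 UMIs in 1 cell, then *Lcn2*, *Fabp5*, *Hmox1* and *Aoah*. These cells were split on a measured value, so the contrasts describe them only.

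**Figure D5:**
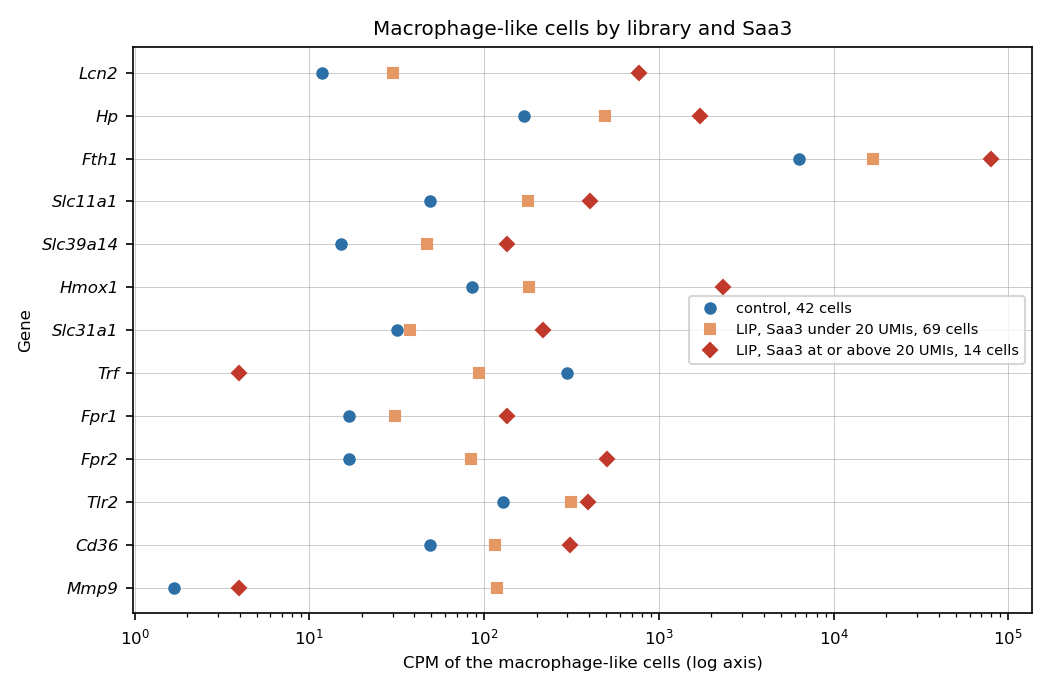
CPM (log axis) in macrophage-like cells of *Lcn2*, *Hp* and the iron, copper, heme and receptor genes that were 2-fold or more apart between the libraries, for control cells as circles, LIP cells under 20 *Saa3* UMIs as squares and LIP cells at or above 20 as diamonds. *Hmox1* stands at 85.8, 181 and 2317 CPM in that order, whereas *Trf* stands at 300, 93.2 and 3.96 CPM.

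Osteogenic-like cells held *Cp* in both libraries, at 152 CPM (133 to 173) in LIP and 55.2 CPM (43.9 to 68.7) in control, a log2 ratio of 1.46 (1.09 to 1.85). A UMI was found in 34 of 64 and 37 of 132 cells, at medians of 20157 and 11623 UMIs, and after thinning to 1000 UMIs in 9.38% and 9.23%. After thinning to 2000 UMIs it was found in 23.4% (13.8 to 35.7) and 12.7% (7.44 to 19.8). The bone sub-cluster was the largest part of the class in LIP (31 of 64 cells) and the *Mfap4* sub-cluster in control (101 of 132). Within the bone sub-cluster *Cp* was at 178 against 34.7 CPM, and within the *Mfap4* sub-cluster at 134 against 65.7 CPM, log2 ratios of 2.36 (1.39 to 3.51) and 1.03 (0.53 to 1.53).

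*Lcn2* in osteogenic-like cells was at 115 CPM in LIP and 10.2 CPM in control, a log2 ratio of 3.49 (2.73 to 4.36). It became 2.51 (1.58 to 3.59) without the cell with the most *Lcn2* in each library, 107 UMIs in LIP and 4 in control. The LIP cell of 107 UMIs was the cell with the most *Saa3*. The bone sub-cluster held 161 of the 170 LIP UMIs and 1 of the 15 control UMIs, a log2 ratio of 5.61 (3.11 to 10.92). In the *Mfap4* sub-cluster there were 6 against 8 UMIs (0.68, -1.13 to 2.39) and in the sub-cluster led by *Cytl1* and *Acan* 3 against 6 (-1.0, -3.63 to 1.22), intervals that include 0. *Hp* had 18 UMIs in LIP and 0 in control. Among 7051 genes of this comparison 3.72% were 2-fold or more higher in LIP and 7.33% were 2-fold or more lower. *Cp* was higher. *Saa3* and *Lcn2* reached the minimum only through LIP, so their being past 2-fold is not counted.

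Of the other secreted acute-phase proteins 3 of 21 were measured in osteogenic-like cells. The protease inhibitor gene *Serpina3n* was higher, at 114 against 17.7 CPM, and the complement gene *C3* was lower, at 397 against 803 CPM. *Serpina3n* reached the minimum only with its LIP counts. *Saa1* was under the minimum with 26 UMIs in LIP and 2 in control. Of 10 iron, copper and heme genes *Trf*, the iron exporter gene *Slc40a1* and *Slc39a14* were higher and 0 lower. Of 16 regulators *Il6* was higher, with 68 UMIs in 4 LIP cells, and *Il6ra* was lower. *Il6* reached the minimum only with its LIP counts. The median log2 ratio was 0.11 over the regulators and -0.16 over all genes. None of the 2 measured receptors and partners and of the 1 measured granule gene passed 2-fold. These whole-class counts join sub-clusters that the libraries filled differently, with the bone sub-cluster largest in LIP and the *Mfap4* sub-cluster in control. They were not split by sub-cluster, and the part of this in the differences was not tested.

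The 7 osteogenic-like cells with 20 or more *Saa3* UMIs had *Cp* at 304 against 124 CPM in the other 57, with a UMI in 7 of 7 and 27 of 57. *Lcn2* was at 520 against 41.5 CPM, but 107 of its 118 UMIs lay in the cell with 3045 *Saa3* UMIs. *Cebpb* stood at 586 against 183 CPM and *Sod2* at 379 against 90.9 CPM, while *Cxcl5* had 430 of its 436 UMIs in 1 cell. *Il6* had 1 UMI in the 7 cells and 67 in the other 57.

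Lymphatic endothelial-like cells, led by *Ccl21a*, *Mmrn1* and *Lyve1*, carried both *Lcn2* and *Cp*. In control *Lcn2* was found in 19 of 19 cells, between 3 and 70 UMIs with a median of 13, and *Cp* in 19 of 19, between 2 and 45 with a median of 10. In LIP the 5 cells had 101, 65, 5, 3 and 0 *Lcn2* UMIs and 37, 15, 5, 0 and 15 *Cp* UMIs. The ranges overlapped, and 5 cells give little precision.

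The *Lcn2* level of these cells was 1552 CPM (1405 to 1709) in control and 3111 CPM (2666 to 3609) in LIP, and the *Cp* level was 1061 CPM (940 to 1192) and 1287 CPM (1007 to 1621). *Cp* was higher here than in any other class of either library. *Hp* had 0 UMIs in the control cells and 1 in the LIP cells, and *Saa3* had 0 and 2. The control cells held 411 *Lcn2* and 30 *S100a8* and *S100a9* UMIs together, 13700 *Lcn2* per 1000, where neutrophil-like control cells held 41.0 per 1000, and the part of free RNA in this *Lcn2* was not tested.

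The same ratio was taken for the other LIP classes, because free neutrophil RNA would carry both transcripts. Neutrophil-like cells had 36.0 *Lcn2* UMIs per 1000 of *S100a8* and *S100a9*, macrophage-like cells 321, osteogenic-like cells 480 and lymphatic endothelial-like cells 6960. Epithelial-like cells had 24.7, T-like cells 12.6 and Schwann-like cells 21.1, below the neutrophil value. B-like cells had 97.6, glandular-like cells 85.1, mural-like cells 68.2 and vascular endothelial-like cells 59.1, above it on 4 to 15 *Lcn2* UMIs each. For *Hp* the ratio was 7.10 in neutrophil-like, 1479 in macrophage-like and 3.29 in epithelial-like LIP cells. *S100a8* and *S100a9* are also keratinocyte genes in inflamed epithelium, and the part of free RNA in the epithelial counts was not tested.

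Epithelial-like cells had *Lcn2* at 46.6 CPM (38.7 to 55.7) in LIP and 5.67 CPM (3.95 to 7.89) in control, a log2 ratio of 3.04 (2.48 to 3.63). A single LIP cell held 76 of the 120 UMIs. Without it and the control cell with the most, 6 UMIs, the ratio was 1.86 (1.15 to 2.59). The direction also depended on where clustering placed the 4 control cells rich in *S100a8*: in 4 of the alternative clusterings at least 1 of them joined the epithelial-like class and the ratio was negative, from -2.89 to -0.99. Of 9393 genes 2.32% were 2-fold or more higher in LIP and 1.53% were 2-fold or more lower, and *Lcn2* was the 1 gene of the 4 with enough UMIs, which it reached only with its LIP counts. *Saa3* had 46 UMIs against 0, *Hp* 16 against 9 and *Cp* 1 against 21.

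*Cp* was the gene of the 4 measured in vessels. In mural-like cells it was at 86.0 CPM (64.8 to 112) in LIP and 35.5 CPM (22.0 to 54.3) in control, a log2 ratio of 1.27 (0.53 to 2.07). The 55 LIP UMIs all lay in the sub-cluster led by *Rgs5* and *Vtn*, genes of pericytes, where 15 of 22 cells had one. In this comparison 3.87% of 3750 genes were 2-fold or more higher in LIP, *Cp* among them, and 3.39% were 2-fold or more lower. *Cp* reached the minimum only with its LIP counts. Within the sub-cluster its log2 ratio was 0.97 (0.16 to 1.85), short of 2-fold.

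In vascular endothelial-like cells *Cp* was at 91.0 CPM (72.0 to 113) in LIP and 145 CPM (108 to 191) in control, a log2 ratio of -0.67 (-1.20 to -0.13), short of 2-fold. One cell held 21 UMIs in each library, and without these cells the ratio was -0.33 (-0.99 to 0.37), an interval that includes 0. With 15 dimensions in the clustering it was -1.63 (-2.11 to -1.16), past 2-fold. Within the sub-cluster led by *Fabp4* and *Selp*, *Cp* had 54 against 48 UMIs, a ratio of -1.11 (-1.70 to -0.52). Within that led by *Sema3g* and *Cldn5* it had 25 against 2 UMIs, a ratio of 2.11 (0.11 to 5.23). The LIP cell of 21 UMIs gave 21 of the 25 in the *Sema3g* and *Cldn5* sub-cluster. The control cell of 21 gave 21 of the 48 in the *Fabp4* and *Selp* sub-cluster, so both ratios leaned on 1 cell. Of 4057 genes 5.32% were 2-fold or more higher in LIP and 3.11% were 2-fold or more lower, with *Cp* the 1 gene of the 4 with enough UMIs. In the control order vascular endothelial-like cells stood second, above osteogenic-like cells, and in LIP they stood below them, with an interval that overlapped that of mural-like cells. Neutrophil-like, T-like and erythroid-like cells had at most 1 *Cp* UMI per library.

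The 4 genes were found together in part of the cells. Among LIP macrophage-like cells 15 had UMIs of both *Saa3* and *Lcn2*, 22 of *Saa3* without *Lcn2* and 10 of *Lcn2* without *Saa3*. *Saa3* and *Hp* were together in 23, and 20 of the 83 cells had neither. Among LIP osteogenic-like cells *Saa3* and *Cp* were together in 10 of 64, and 8 had *Saa3* without *Cp*. Deeper cells show more genes, so these counts also follow depth.

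Across 18 groups of class and library with at least 20 cells, the genes whose log2(CPM + 10) profile was most like that of *Saa3* were *Slc31a1* (Pearson's r 0.78), *Timp1*, *Smpdl3b*, *Mcpt8* and *Ifi205* (0.71). For *Lcn2* they were *Gm1604a* (0.96), *Wfdc21*, *Trem3*, *Prok2* and *Cebpe* (0.95), and for *Hp* *Mcemp1* (0.99), *Gm9733*, *Igsf6*, *Clec5a* and *Itgam* (0.98). For *Cp* they were *Pxdn* (0.93), *Cxcl12*, *Lifr*, *Synpo* and *Nrp1* (0.92). The groups share 2 libraries and differ in depth, and over the 11 groups of at least 50 cells only 1 of the 5 genes remained for *Saa3*, 1 for *Lcn2*, 2 for *Hp* and 0 for *Cp*.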

How the data were processed

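Single periodontal cells were captured by droplet sequencing of transcript 3′ ends (10x Genomics, version 3 chemistry) in 2 libraries. The authors deposited a matrix of UMI counts for each, whole numbers without normalization, made with Cell Ranger (version 3.1.0 in the matrix headers) on mm10. Barcodes with 200 to 7500 genes, at most 60000 UMIs and at most 10% mitochondrial UMIs were kept, as in the methods of the study. Integration across the libraries and clustering used Seurat 5.3.0 under R 4.3.3 (2000 variable genes, 30 dimensions, resolution 0.1, sub-clusters at 0.2). Sub-clusters were named from marker lists of 19 classes without the 4 genes. A name needed 3 markers found in at least 25% of the cells and over 2-fold above the rest with 10 CPM added, and the class with most markers among the 10 leading genes won. Such names can differ from those of the study. Scrublet (scanpy 1.11.5) marked 1 LIP and 4 control barcodes as doublets. They stayed in and were removed in an alternative. Other alternatives varied resolution, dimensions, variable genes, integration, mitochondrial and depth limits, scaling, minimum UMIs and the cell with the most UMIs.

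UMIs were summed per class and library in Python 3.11.15 (numpy 2.4.6, scipy 1.17.1, pandas 2.3.3), and plots were drawn with matplotlib 3.10.9. CPM carry exact Poisson intervals, shares exact Clopper-Pearson intervals and ratios exact conditional intervals at 95%. A count of 0 allows up to 3 counts over the group. Ratios were called at 2-fold with at least 50 UMIs over both libraries. Some list genes called higher reached this minimum only with their LIP counts. They were counted, as were such genes in the shares over all genes. Shares were also computed after thinning each cell to 1000 and 2000 UMIs. With 1 library per condition there was no test. The ratio intervals and the naming rule were tested on simulated counts, and clustering, integration and thinning were not. The counts were drawn from the pooled profile of a class or sub-cluster, so they held no difference in profile between cells.

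The 4 genes, the 5 gene lists, the markers and the naming rule were chosen with earlier results of these data known. Named genes are the 4, the 5 genes most like each, genes of the lists, *S100a8* and *S100a9*, and leading genes of a sub-cluster. The line at 20 *Saa3* UMIs and the genes that lead the cells above it, and *Krt14*, *Col1a1*, *Ibsp*, *Dcn*, *Spp1*, *C1qa* and other markers given for single cells, were chosen after the values were seen.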

Additional observations from a re-analysis of the deposited data

Results flagged for a closer look

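The difference between LIP and control ran in opposite directions in different classes for 3 of the 4 genes, with counting intervals that leave out 0 in the setting reported. The difference between classes was not tested, since each condition has 1 library. For *Lcn2* the log2 ratio was 3.67 in macrophage-like, 3.49 in osteogenic-like and 3.04 in epithelial-like cells and -0.69 in neutrophil-like cells. Within the granule sub-cluster and the *Acod1* and *Ccl3* sub-cluster of neutrophil-like cells it was -0.05 and -0.16. In 4 of the alternative clusterings the epithelial-like ratio was negative. *Lcn2* had 7, 15 and 35 control UMIs in macrophage-like, osteogenic-like and epithelial-like cells and reached the minimum there only with its LIP counts. Single cells held 101 of the 233, 107 of the 170 and 76 of the 120 LIP UMIs of these classes. For *Hp* the log2 ratio was 2.02 in macrophage-like and -0.31 in neutrophil-like cells, and -0.00 and -0.45 within the same neutrophil sub-clusters. For *Cp* it was 1.46 in osteogenic-like and 1.27 in mural-like cells and -0.67 in vascular endothelial-like cells. The last was -0.33 with an interval across 0 without the cell with the most UMIs in each library. Within the *Fabp4* and *Selp* sub-cluster it was -1.11, and within the *Sema3g* and *Cldn5* sub-cluster 2.11. One cell gave 21 of the 48 control UMIs of the former, and another gave 21 of the 25 LIP UMIs of the latter. In mural-like cells *Cp* had 21 control UMIs and reached the minimum only with its LIP counts. The barcodes left out of the LIP library held 11398 *Saa3* UMIs, a signal outside the cells analysed, where those left out of the control library held 6.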

How the results depend on the processing

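In all, 15 alternatives in how cells were chosen, clustered, scaled or thinned, in minimum counts and in group size gave 165 values. Of these 125 lay close to the value reported, within its counting interval or, for shares of genes called, within 1.5 times of it. The share of LIP *Saa3* in macrophage-like cells was 57.6% without the macrophage-like cell with the most of it, 2110 UMIs. It was 34.8% with no upper limit on genes or UMIs, an alternative chosen after seeing the data. The share in osteogenic-like cells was 12.4% without a different cell, the osteogenic-like cell of 3045 UMIs. It was 59.4% with no upper limit and 33.5% when the libraries were merged without integration. The *Lcn2* log2 ratio of neutrophil-like cells was -0.85 with 15 dimensions and -0.83 with the 4 genes left out of the variable features, clusterings that put 3 and 4 of the *S100a8*-rich control cells of the unnamed sub-cluster among neutrophil-like cells. The *Cp* ratio of osteogenic-like cells was 1.09 with each cell weighted equally, and the cause was not tested. The *Lcn2* ratio of epithelial-like cells was reversed to -1.07 with 15 dimensions, -2.89 with at most 5% mitochondrial UMIs, -2.86 merged without integration and -0.99 with no upper limit. In these clusterings the epithelial-like control cells included 1, 5, 4 and 7 cells with 20 or more UMIs of both *S100a8* and *Lcn2*, against 0 in the setting reported. The *Cp* ratio of vascular endothelial-like cells was -1.63 with 15 dimensions, and the cause was not tested. Beside these, the *Hp* ratio ranged from 1.95 to 2.28 in macrophage-like and from -0.34 to -0.26 in neutrophil-like cells. With at least 20 UMIs the share of genes called lower was 6.14% in macrophage-like, 11% in osteogenic-like and 6.46% in neutrophil-like cells, against 3.77%, 7.33% and 3.05%. No paired analysis was possible because each condition has 1 library. Classes of 5 to 20 cells, among them lymphatic endothelial-like, B-like and erythroid-like LIP cells, limit what could be seen of levels near 1 UMI.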

Other observations

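Epithelial-like cells of the LIP library had 4 of 18 measured acute-phase regulators 2-fold or more higher and 0 lower, with a median log2 ratio of 0.31 against -0.02 over all genes, of which 2.32% were higher and 1.53% lower. They were *Il1b* (22.5 against 5.03 CPM), the feedback inhibitor *Socs3* (28.7 against 10.4 CPM), *Cebpd* (25.2 against 9.89 CPM) and *Nfkbiz* (77.3 against 33.7 CPM). Of 11 iron, copper and heme genes *Hmox1* (11.3 against 4.22 CPM) and *Steap4* (15.9 against 3.24 CPM) were higher and 0 lower. At least *Il1b*, *Hmox1* and *Steap4* reached the minimum only with their LIP counts. Of 3 granule genes *Lyz2* was higher, and none of the 2 receptors and partners passed 2-fold. *Socs3* went the other way in mural-like cells, at 303 CPM in LIP and 692 CPM in control, and this difference between classes was not tested.

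In vascular endothelial-like cells *Hmox1* (50.7 against 17.4 CPM) and the interleukin 1 receptor gene *Il1r1* (130 against 46.4 CPM) were higher. Both reached the minimum only with their LIP counts. The metallothionein gene *Mt1* (28.8 against 81.1 CPM) and the fatty acid receptor gene *Cd36* (111 against 661 CPM) were lower, *Cd36* with UMIs in 11 LIP and 12 control cells. These came from 4 measured iron, copper and heme genes, 2 receptors and partners and 11 regulators, and over all genes of the class 5.32% were higher and 3.11% lower. In mural-like cells *Slc39a14* was the 1 of 7 measured iron, copper and heme genes that was higher, and *Socs3* the 1 of 14 regulators that was lower, beside 3.87% of all genes higher and 3.39% lower.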
